A study of Mus musculus with 9 samples.

Results

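Deubiquitinases and RING-type ubiquitin ligases were followed in prostate stroma between the stages of prostate intraepithelial neoplasia (PIN) and invasive cancer. The members are all genes on the array whose symbol begins with Usp, Otub or Otud (deubiquitinases) or with Rnf or Trim (ligases) followed, except for Otub and Otud, by a number. They came to 118 of the 8146 genes with a clone, 43 deubiquitinases (37 Usp and 6 Otu genes) and 75 ligases (48 Rnf and 27 Trim genes), read by 200 cDNA clones. The rule goes by symbol and not by activity, so some members may not be active enzymes of their class. Examples are Usp6nl, which encodes a GTPase-activating protein for Rab proteins and is no deubiquitinase, and Trim44, a TRIM protein without a RING finger.

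Both groups of samples came from male FVB mice hemizygous for CR2-TAg, a transgene that expresses SV40 large T antigen in prostatic neuroendocrine cells under regulatory elements of the cryptidin-2 gene (Defcr2). Stroma was cut out by laser capture from 6 mice of 24 weeks with invasive tumors that had spread to lung and liver, and from 3 mice of 10 weeks with PIN (replicates 2, 3 and 4). The other PIN array was not analysed here. There were no mice without the transgene and no PIN mice of 24 weeks, so stage and age cannot be told apart. According to the paper, stroma was also taken up to a greater distance from the epithelium in invasive tissue than in PIN. That difference follows stage as well. Each value is the log2 ratio of 1 mouse's amplified stromal RNA (Cy5) over a pool of the PIN samples (Cy3). The pool held the PIN samples themselves, so their ratios may be drawn toward 0, and the dyes were never swapped.

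Ubiquitin is attached to proteins by a relay of activating (E1), conjugating (E2) and ligating (E3) enzymes. RING ligases, the most numerous E3 class, bring a loaded E2 to the substrate, whereas deubiquitinases cut ubiquitin off again and edit its chains. The balance between them sets the lifetime and location of many proteins and also marks histones at genes and at DNA breaks. In stroma and in leukocytes the same system is known for its part in TGF-beta, NF-kB and interferon signaling.

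Of the members, 4 passed the comparison of invasive with PIN stroma, made with limma across 8106 genes at the study's false discovery rate (adjusted p under 0.15). The ligases Rnf144a and Trim59 and the deubiquitinase Usp27x rose, and the deubiquitinase Otud5 fell. These 4 are 3.39% of the members, against 5.64% of all genes tested. Their promoters are printed here because these genes carry the only passing differences among the members. Each stretch runs 5′ to 3′ on the strand of the gene, from 250 bases before to 50 bases after the first transcription start listed, taken from RefSeq on GRCm38.p6. The locations are chr12:26415213-26415512 (minus strand) for Rnf144a, chr3:69044693-69044992 (minus strand) for Trim59, chrX:7375781-7376080 (minus strand) for Usp27x and chrX:7841581-7841880 (plus strand) for Otud5, for which 2 starts are listed. Capitals mark the GC box (GGGCGG, or CCGCCC on the other strand) and the CCAAT box (CCAAT, or ATTGG on the other strand).
Rnf144a: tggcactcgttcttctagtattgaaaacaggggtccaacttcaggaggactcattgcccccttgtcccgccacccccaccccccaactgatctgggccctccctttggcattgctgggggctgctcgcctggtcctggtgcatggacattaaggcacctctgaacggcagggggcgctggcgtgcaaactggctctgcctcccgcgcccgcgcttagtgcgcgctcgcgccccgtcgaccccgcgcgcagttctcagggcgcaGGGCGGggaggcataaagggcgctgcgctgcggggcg
Trim59: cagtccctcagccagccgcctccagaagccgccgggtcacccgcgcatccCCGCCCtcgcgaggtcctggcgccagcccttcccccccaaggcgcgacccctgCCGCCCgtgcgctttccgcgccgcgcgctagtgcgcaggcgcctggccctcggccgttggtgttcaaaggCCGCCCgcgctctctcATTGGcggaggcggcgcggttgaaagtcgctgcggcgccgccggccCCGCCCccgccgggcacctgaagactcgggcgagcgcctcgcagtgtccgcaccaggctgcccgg
Usp27x: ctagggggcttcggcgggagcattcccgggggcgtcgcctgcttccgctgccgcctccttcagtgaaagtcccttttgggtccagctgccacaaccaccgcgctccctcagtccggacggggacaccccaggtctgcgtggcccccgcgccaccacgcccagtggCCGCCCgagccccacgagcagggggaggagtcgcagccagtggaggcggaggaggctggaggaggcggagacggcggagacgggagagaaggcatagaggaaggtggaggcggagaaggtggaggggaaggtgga
Otud5: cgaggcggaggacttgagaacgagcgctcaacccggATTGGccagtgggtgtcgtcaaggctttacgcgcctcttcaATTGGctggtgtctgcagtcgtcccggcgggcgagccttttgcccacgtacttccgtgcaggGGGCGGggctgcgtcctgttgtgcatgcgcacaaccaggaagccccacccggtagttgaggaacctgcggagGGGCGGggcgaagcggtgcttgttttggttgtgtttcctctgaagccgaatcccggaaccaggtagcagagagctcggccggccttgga

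All 4 sequences are rich in G and C, at 67.0% for Rnf144a, 76.7% for Trim59, 70.3% for Usp27x and 63.3% for Otud5. Every one holds a GC box, with 1 in Rnf144a, 4 in Trim59, 1 in Usp27x and 2 in Otud5, and CCAAT boxes occur in Trim59 (1) and Otud5 (2). RefSeq promoters could be matched to 91 of the 118 members. Among these, 72.5% hold a GC box, 31.9% a CCAAT box, 9.89% a TATA box (TATAAA) and 16.5% the core of an E2F site (GCGGGAA, which can share letters with a GC box). Among the 6589 promoters of genes on the array the shares are 64.3%, 38.9%, 7.80% and 8.80%, and among all 27025 promoters of the same 300 bases 35.9%, 37.9%, 14.2% and 4.66%. Both strands were searched. The median GC content is 63.3% for the members, 61.0% for genes on the array and 52.7% for all promoters. A match of letters is a description of the sequence and not a binding site.

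The arrays held 17189 to 17206 values each, with an SD of 0.69 to 0.81 in invasive and 0.54 to 0.57 in PIN stroma. PIN replicate 4 resembled the others of its group least. Over all clones its r was 0.176 with PIN replicate 2 and 0.189 with PIN replicate 3, which had 0.672 with each other. Over the 118 members its r with them was −0.23 and −0.29. Several cell type markers moved with stage. All 6 macrophage markers passed upward, and their mean ran from 1.00 to 2.83 in invasive and from −0.36 to 0.44 in PIN stroma. Upward passes were also seen for 5 of 10 fibroblast, 6 of 9 cycling cell, 2 of 6 endothelial and 1 of 5 neuroendocrine markers, and 2 of 4 smooth muscle markers passed downward. No marker of epithelium (6 tested), skeletal muscle (3) or the interferon response (3) passed in limma, where 5.64% of all genes did. None of these had an unadjusted p under 0.05, against 15% of all genes. Log ratios hold no absolute level, so the presence of a cell type cannot be read from them, and more cells of a type cannot be told apart from more RNA per cell. The part of these shifts in the results on members was not tested.

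The median difference of the 118 members, invasive minus PIN, was 0.04 on the log2 scale, against 0.02 over all genes, and the median size of a difference was 0.18, against 0.23. A difference over 0.5 in size was measured for 11.9% of the members and for 19.7% of all genes. The deubiquitinases had a median of −0.01, with 20 above 0 and 23 below, and the ligases one of 0.06, with 43 above and 32 below. Of all genes tested, 4216 lay above 0 and 3890 below.

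**Figure D1:**
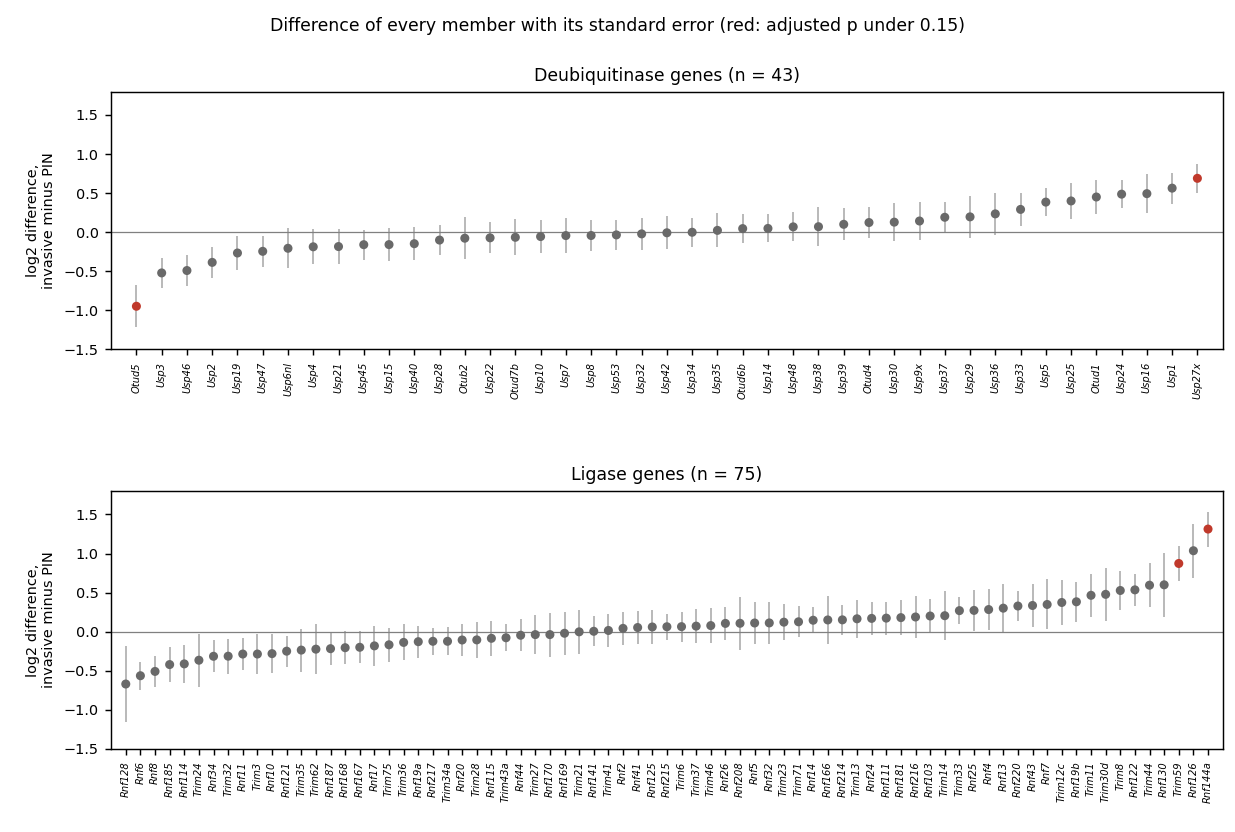
Difference of every member between invasive (n = 6) and PIN (n = 3) stroma on the log2 scale, with its standard error as a vertical line, for the deubiquitinases (upper panel) and the ligases (lower panel) in order of size. Red points passed at an adjusted p under 0.15. Most members lie within 0.5 of 0, and the range runs from −0.95 (Otud5) to 1.31 (Rnf144a).

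Among the deubiquitinases, 1 gene rose and 1 fell (4.65%, against 5.64% of all genes passing, 3.75% higher and 1.89% lower). In 7 of the 43 the 6 invasive and the 3 PIN arrays did not overlap (16.3%), against 7.85% of all genes. Invasive stroma was above in 4 of them and below in 3, where the shares of all genes were 4.86% and 2.99%. At an unadjusted p under 0.05 the share was 13.95% of the deubiquitinases and 15% of all genes.

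Usp27x, an X-linked relative of the histone deubiquitinase Usp22, ran from −0.01 through a median of 0.26 to 0.43 in invasive stroma and stood at −0.72, −0.46 and −0.19 in PIN replicates 2, 3 and 4. Every invasive array was above every PIN array, though the lowest was close to the pool. The difference was 0.69 (standard error, SE, 0.19), or 1.61-fold, with an adjusted p of 0.105. Its relative Usp22, the catalytic subunit of the SAGA deubiquitinase module, differed by −0.07 (adjusted p = 0.911).

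Otud5, also X-linked and known to restrain the induction of type I interferon by acting on Traf3, ran from −0.96 through −0.84 to 0.03 in invasive stroma. It stood at 0.34, 0.74 and −0.20 in PIN stroma. The groups overlapped, since invasive replicate 1 (0.03) lay above PIN replicate 4. The difference was −0.95 (SE 0.27), or 1.93-fold lower in invasive stroma, with an adjusted p of 0.117. The other 5 OTU deubiquitinases did not pass, and the largest difference among them was that of Otud1, at 0.45 (SE 0.21, adjusted p = 0.35). None of the 3 interferon response markers tested passed, and a link between them and Otud5 was not tested.

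Of the 10 deubiquitinases listed for chromatin and the nucleus, Usp27x was the only one to pass (10.0%, against 5.64% of all genes). An unadjusted p under 0.05 was reached by 3 (30.0%, against 15% of all genes). The groups did not overlap in 3 (30.0%, against 7.85%), with invasive stroma above in 2 and below in 1. The list is short and was drawn up with earlier results of these data known. Usp1, which removes ubiquitin from Fancd2 and PCNA in DNA repair, ran from −0.02 through 0.41 to 0.76 in invasive stroma, above the PIN values of −0.23, −0.15 and −0.11. The difference was 0.56 (SE 0.20, adjusted p = 0.191). Usp3, which acts on ubiquitinated histone H2A, lay the other way, from −0.69 through −0.50 to −0.13 against −0.08, 0.29 and 0.07, with a difference of −0.52 (SE 0.19, adjusted p = 0.219). The groups of neither gene overlapped, and neither passed. Usp16, another H2A deubiquitinase, ran from −0.16 through 0.38 to 0.81 against −0.32, −0.35 and 0.34, so that the groups overlapped, and differed by 0.49 (SE 0.25, adjusted p = 0.374). Its clones gave 0.90 and 0.08, so the gene's value averages a higher clone with one near 0, and neither clone passed over all clones (adjusted p = 0.181 and 0.966). Usp7, a deubiquitinase of the p53 and Mdm2 pathway, and Usp21, another histone deubiquitinase, differed by −0.04 and −0.18.

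Among the 12 deubiquitinases listed for membranes, organelles and the cytoskeleton none passed in limma, where 5.64% of all genes did. The list is loose and also holds enzymes with other known roles, such as Usp5 and Usp2. Usp5, which takes apart free ubiquitin chains, ran from 0.25 through 0.52 to 0.63 against 0.21, −0.11 and 0.19 and differed by 0.38 (SE 0.18, adjusted p = 0.337). Usp2, a deubiquitinase of cyclin D1, ran from −0.98 through −0.46 to −0.34 against −0.30, −0.22 and 0.08 and differed by −0.39 (SE 0.20, adjusted p = 0.380). The groups of both genes were apart, by as little as 0.03 and 0.04 between their nearest arrays. The other 10 ranged from −0.27 (Usp19) to 0.29 (Usp33). None of these 12 had an unadjusted p under 0.05, against 15% of all genes. Outside the role lists, Usp24 ran from −0.03 through 0.35 to 0.42 against −0.25, −0.29 and −0.08, a difference of 0.49 (SE 0.18, adjusted p = 0.203). Usp46, which like Usp1 works with the cofactor Wdr48, ran from −0.95 through −0.51 to −0.24 against −0.05, −0.10 and 0.06, a difference of −0.49 (SE 0.19, adjusted p = 0.244). Its groups did not overlap either.

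**Figure D2:**
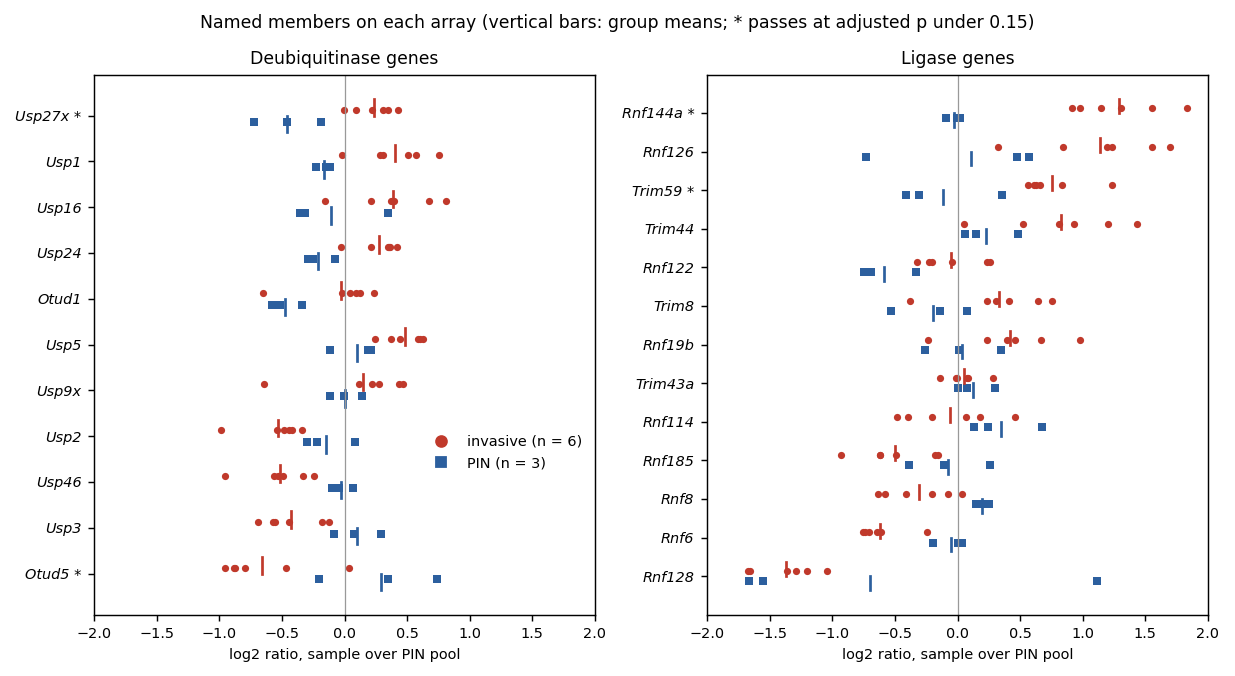
The log2 ratio of sample over PIN pool on each array for the 11 deubiquitinases (left) and 13 ligases (right) described by name, with 6 invasive arrays (red circles), 3 PIN arrays (blue squares) and the group means as vertical bars. An asterisk marks a gene that passed. Rnf144a has every invasive array at 0.91 or more and every PIN array near 0, while in Rnf128 a single PIN array, at 1.11, lies far from all others.

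Among the ligases, 2 of 75 rose and none fell (2.67%, against 5.64% of all genes passing, 3.75% higher and 1.89% lower). In 5 of them the groups did not overlap (6.67%, against 7.85% of all genes), with invasive stroma above in 3 and below in 2. An unadjusted p under 0.05 was reached by 8.0% of the ligases and 15% of all genes. These ligase shares rest on few genes, and their distance from those of all genes was not tested.

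Rnf144a, a ligase of the RING-between-RING kind with a membrane anchor, known to target the DNA repair kinase DNA-PKcs, had the largest difference of all members. It ran from 0.91 through 1.23 to 1.83 in invasive stroma and stood at 0.02, −0.00 and −0.10 in PIN stroma. The PIN arrays lay within 0.12 of each other and the lowest invasive array lay 0.89 above the highest of them. The difference was 1.31 (SE 0.22), or 2.48-fold, with an adjusted p of 0.0230, and 98.1% of all genes had a lower difference. The other RING-between-RING ligases among the members, picked out after the values were seen, were Rnf14 (0.15), Rnf19a (−0.13), Rnf19b (0.38), Rnf216 (0.19) and Rnf217 (−0.12). None of these passed in limma or had an unadjusted p under 0.05, against 5.64% and 15% of all genes.

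Trim59, a TRIM ligase anchored in membranes, ran from 0.57 through 0.64 to 1.23 in invasive stroma and stood at −0.41, 0.36 and −0.31 in PIN stroma. The invasive arrays were all above PIN replicate 3, the highest PIN array, and 5 of the 6 lay between 0.57 and 0.84. The difference was 0.87 (SE 0.23), or 1.83-fold, with an adjusted p of 0.0906. Both passing ligases belong to the 16 listed as membrane ligases (12.5%, against 5.64% of all genes passing and 3.75% upward). The other 14 did not pass, and the list was drawn up with earlier results of these data known. Rnf122 ran from −0.32 through −0.13 to 0.26 against −0.69, −0.74 and −0.33, apart by only 0.0062, and differed by 0.53 (SE 0.20, adjusted p = 0.226). Rnf185, a ligase of protein degradation at the endoplasmic reticulum, differed by −0.42 (SE 0.23, adjusted p = 0.413). Rnf130, the mammalian Goliath, spread over 2.21 between its lowest and highest invasive array and differed by 0.60 (SE 0.41, adjusted p = 0.549).

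Rnf128, known as GRAIL for its role in T cell anergy, had the lowest difference of the ligases, −0.67 (SE 0.49, adjusted p = 0.585). It ran from −1.67 through −1.33 to −1.05 in invasive stroma and stood at −1.66, −1.56 and 1.11 in PIN replicates 2, 3 and 4. PIN replicates 2 and 3 lay at the level of the invasive arrays, and both clones gave the same picture. Without PIN replicate 4 the difference was 0.24 (adjusted p = 0.689). The gap between PIN replicate 4 and the mean of the other PIN arrays, 2.72, was the largest of the 118 members, ahead of −1.25 for Rnf126 and 1.06 for Trim30d. The mean of the 6 epithelial markers tested was 0.80 on PIN replicate 4, −1.19 and −1.44 on the other PIN arrays and −1.46 to −0.17 on the invasive arrays. Their part in the value of Rnf128 was not tested.

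**Figure D3:**
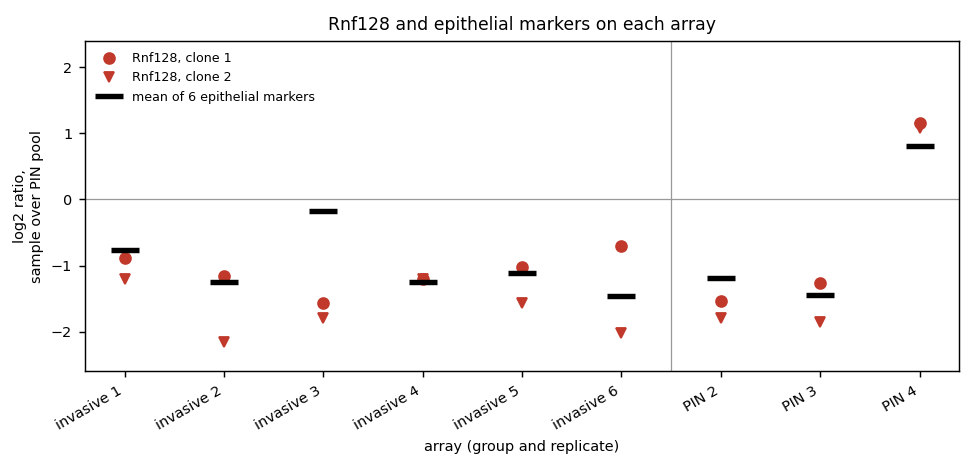
The log2 ratio of sample over PIN pool for the 2 clones of Rnf128 (red symbols) and the mean of 6 epithelial markers (black bars) on each of the 9 arrays. Both clones and the marker mean are above 0 on PIN replicate 4 and below 0 on the other 8 arrays.

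None of the 11 chromatin ligases passed in limma, where 5.64% of all genes did. With so few genes, the absence of a pass does not set a list apart from all genes. Of the 11, 1 had an unadjusted p under 0.05 (9.09%, against 15% of all genes). That was Rnf8, which starts the ubiquitin signal on histones around DNA breaks. It ran from −0.63 through −0.31 to 0.04 in invasive stroma, below the PIN values of 0.15, 0.26 and 0.19, and differed by −0.51 (SE 0.20, adjusted p = 0.243). Rnf168, which extends that signal, differed by −0.21, Rnf20, a ligase of histone H2B, by −0.11, and Rnf2, the H2A ligase of Polycomb, by 0.04 over 5 clones. The transcription cofactors Trim24, Trim28 and Trim33 differed by −0.37, −0.11 and 0.27.

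The interferon-linked members did not pass either, 0 of 6 in limma, where 5.64% of all genes did. None had an unadjusted p under 0.05, against 15% of all genes. They differed by −0.41 (Rnf114), 0.48 (Trim30d), 0.37 (Trim12c), 0.20 (Trim14), −0.12 (Trim34a) and −0.00 (Trim21). Of these, Trim21, the cytosolic antibody receptor, lay between −0.73 and 0.82 on the invasive arrays, around PIN values of 0.08, −0.04 and 0.05. The single muscle member measured was Trim32 (−0.31). The 4 TRIM ligases of neurons and the cytoskeleton lay between −0.29 (Trim3) and 0.13 (Trim71). None of these passed in limma or was under 0.05 before adjustment, against 5.64% and 15% of all genes.

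Among the ligases outside the role lists, Rnf6 and Rnf126 came closest to the threshold. Rnf6, a nuclear ligase known to modify the androgen receptor, ran from −0.76 through −0.68 to −0.24 in invasive stroma, below the PIN values of 0.00, 0.03 and −0.19. The difference was −0.56 (SE 0.18), or 1.48-fold lower, with an adjusted p of 0.153, so that it missed the threshold narrowly. Rnf126, which acts with Bag6 on mislocalized proteins, ran from 0.33 through 1.21 to 1.70 against 0.57, 0.48 and −0.73. Its difference of 1.04 (SE 0.34, adjusted p = 0.167) was the second largest upward, but invasive replicate 3 (0.33) lay below PIN replicates 2 and 3, and the difference was 0.62 without PIN replicate 4. Farther from the threshold, Trim44 differed by 0.59 (SE 0.28, adjusted p = 0.344) and Trim8, a regulator of NF-kB signaling, by 0.53 (SE 0.25, adjusted p = 0.354), both with overlapping groups.

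How firmly the 4 passing calls stood varied with the arrays in the fit. Rnf144a passed whichever array was left out, with adjusted p of 0.00738 to 0.118. Trim59 lost the call without invasive replicate 4 (0.151) or 5 (0.161) and without PIN replicate 2 (0.339) or 4 (0.187). Usp27x lost it without invasive replicate 4 (0.192), 5 (0.177) or 6 (0.155) and without PIN replicate 2 (0.381) or 3 (0.277). Otud5 lost it without invasive replicate 2 (0.175), 4 (0.208), 5 (0.195) or 6 (0.184) and without PIN replicate 2 (0.333) or 3 (0.361). Their differences kept their direction throughout. Without PIN replicate 4, the array that stood apart, the differences were 1.28, 0.78, 0.82 and −1.20 for Rnf144a, Trim59, Usp27x and Otud5. The passing members then numbered 2 among the deubiquitinases and 1 among the ligases.

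**Figure D4:**
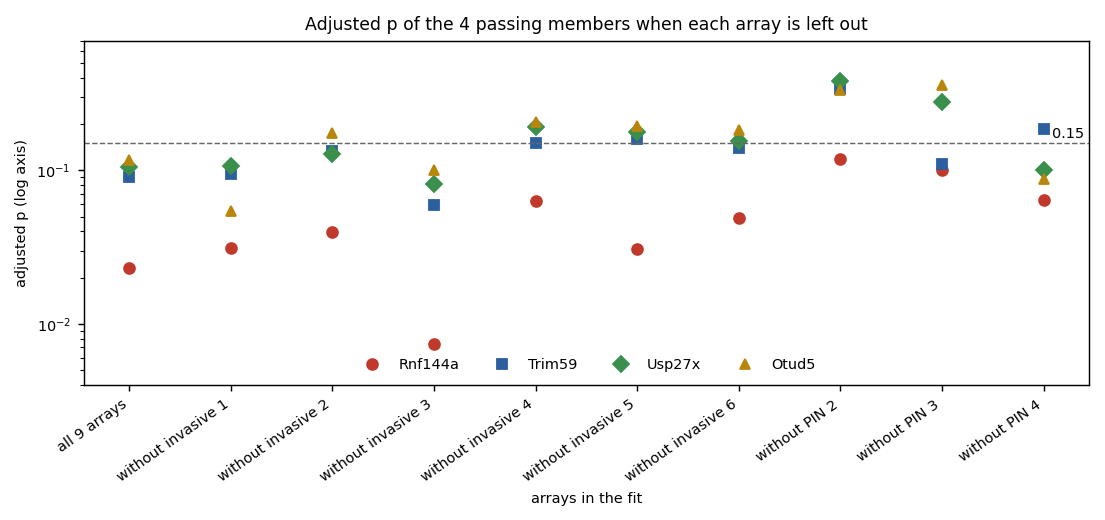
Adjusted p (log axis) of the 4 passing members with all 9 arrays and with each array left out in turn, and the threshold of 0.15 as a broken line. Rnf144a stays under the line at every position, at 0.118 or less, whereas Trim59, Usp27x and Otud5 cross it when certain invasive or PIN arrays are missing.

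Each of the 4 passing genes rests on 1 clone. Of the 67 members with a single clone 5.97% passed, against 6.21% of all such genes, and of the 51 with more clones none did in limma, against 4.59%. Of the latter, 3 had an unadjusted p under 0.05 (5.88%, against 12.5% of all genes with more clones). In a fit over all 17207 clones, 1 of the 200 member clones passed, that of Rnf144a (adjusted p = 0.0393), which is 0.5% against 2.16% of all clones. The clones of Trim59, Otud5 and Usp27x, with the same values as the genes, had adjusted p of 0.152, 0.178 and 0.187 there. The groups did not overlap in 6.50% of the member clones, against 6.25% of all.

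In 28 of the 51 members with more than 1 clone the clones all differed in the same direction, and in 23 they did not. The median range between the clones of a member was 0.32, larger than the median size of a member's difference. Usp9x, a large X-linked deubiquitinase, had the widest range, with 6 clones from −0.36 to 0.99 and a mean of 0.14 (SE 0.24, adjusted p = 0.852). Trim43a had −0.65, 0.34 and 0.08, and Rnf19b, a ligase of natural killer cells, 0.85 and −0.09. The clones of Trim44 (1.09 and 0.10) and Usp1 (0.97 and 0.16) shared their direction but lay far apart in size. The clones of Usp3 (−0.61 and −0.44), Rnf128 (−0.80 and −0.54) and Usp24 (0.70, 0.57 and 0.19) also shared their direction.

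**Figure D5:**
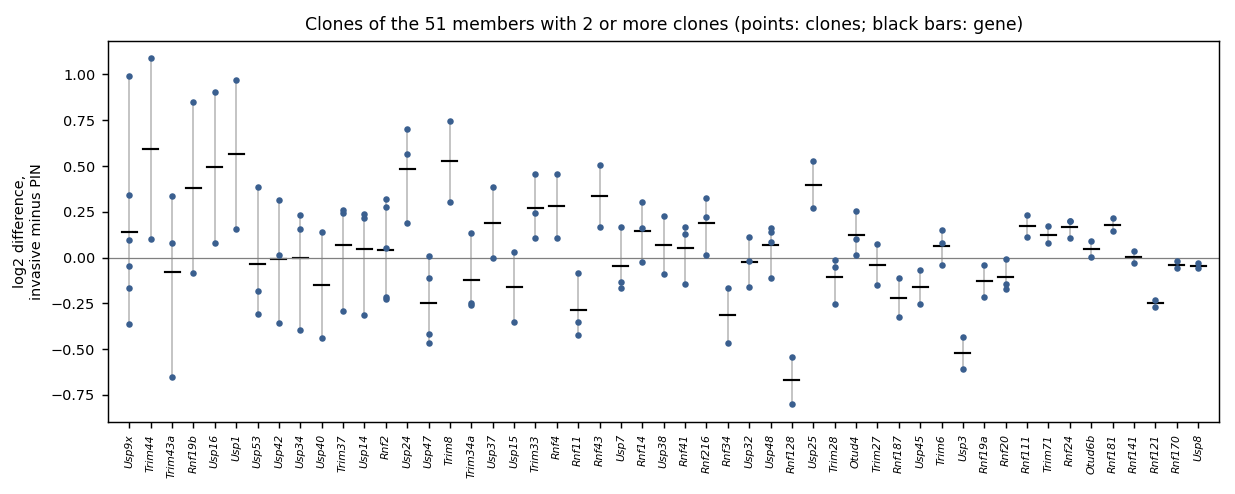
Difference between invasive and PIN stroma of each clone (points) and of the gene (black bars), on the log2 scale, for the 51 members with 2 or more clones, in order of the range between clones. Usp9x at the left spans −0.36 to 0.99, while the clones at the right differ by less than 0.1.

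The rest of the ubiquitin system on the array was counted from lists of its other parts. Across all genes tested, 5.64% passed, 3.75% upward and 1.89% downward. Of 29 E1 and E2 enzymes 2 rose (6.90%, against 5.64% of all genes passing and 3.75% passing upward), with a median of 0.08 over the list. Ube2t, the E2 of the Fanconi anemia pathway, from which Usp1 takes ubiquitin off again, ran from 0.28 through 1.13 to 2.50 against −0.57, −0.06 and −0.51. It differed by 1.57 (SE 0.39), or 2.97-fold, with an adjusted p of 0.0742, and was highest on invasive replicate 3. On that array the means of the 9 cycling cell and the 5 neuroendocrine markers were also highest (2.01 and 2.18). The macrophage, fibroblast and endothelial means were there the lowest of the invasive arrays (1.00, 0.29 and 0.34). The part of these markers in the value of Ube2t was not tested. The other gene of this list that rose was Ube2v2, an E2 variant that pairs with Ube2n, at 0.79 (SE 0.25, adjusted p = 0.149), with overlapping groups.

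Among 44 other RING and U-box ligases, 2 rose (4.55%, against 3.75% of all genes), with a median of 0.12. Birc2, the apoptosis inhibitor cIAP1, ran from 0.11 through 0.45 to 0.56 against −0.21, −0.55 and −0.48, a difference of 0.80 (SE 0.19, adjusted p = 0.0602). Marchf3, a membrane ligase of the MARCH family, ran from 0.18 through 0.65 to 0.84 against −0.89, −0.45 and 0.16, a difference of 0.99 (SE 0.24, adjusted p = 0.0675). In both genes all invasive arrays were above all PIN arrays, as in 4.86% of all genes. The nearest arrays of the 2 groups lay close together in Marchf3, at 0.18 and 0.16. Of 29 parts of cullin-RING ligases and the anaphase-promoting complex 1 rose (3.45%, against 3.75% of all genes), Skp2, the F-box protein for p27, at 0.80 (SE 0.24, adjusted p = 0.139), and the median was 0.07.

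None of 20 genes listed as other deubiquitinases and related genes passed in limma, where 5.64% of all genes did. An unadjusted p under 0.05 was reached by 3 (15.0%, against 15% of all genes). The list also holds Senp genes, which encode proteases of ubiquitin-like proteins, and complex subunits such as Psmd7 and Cops6 that are not active deubiquitinases. Senp8 and Psmd7 are among the 3. The median of the 20 was −0.13, and 17 of the 20 differences were below 0, where 3890 of the 8106 genes tested were. The direction of the list as a whole was not tested. The largest of the 20 differences was upward, that of Uchl1, a neuronal and neuroendocrine enzyme, at 1.08 (SE 0.37, adjusted p = 0.182). Senp8 was the lowest at −0.61 (SE 0.22, adjusted p = 0.191). None of 17 HECT ligases passed either, and their median was −0.07. An unadjusted p under 0.05 was reached by 1 of them (5.88%, against 15% of all genes), Herc1 (−0.57, SE 0.23, adjusted p = 0.265). Of 4 ubiquitin and ubiquitin-like genes none passed, 1 had an unadjusted p under 0.05 (Sumo2, 0.80, SE 0.28, adjusted p = 0.187), and the median was 0.33.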

How the data were processed

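Stroma of 6 invasive and 3 PIN prostates was measured on spotted 2-color cDNA arrays, 1 mouse each. The authors extracted spot intensities with ScanAlyze, normalized within arrays (print-tip lowess, background not subtracted) and deposited log2 ratios of sample (Cy5) over the PIN pool (Cy3). Dim spots were not filtered, and the number of arrays limits the precision. P-values measure the spread between mice.

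Of 17664 rows, 457 held no value, and 12563 had 1 gene symbol in the platform annotation, which may be old. The 412 rows with several symbols (9 of them naming a member) and the 4689 with none were left out of tests of genes. On each array the clones that share a symbol were averaged. The 8106 genes with 4 or more invasive and 2 or more PIN values were compared by limma's moderated test (version 3.58.1, R 4.3.3). It was two-sided, p-values were adjusted by the Benjamini-Hochberg method over all these genes, and a gene passed at an adjusted p under 0.15. All 118 members were tested. SE is that of the difference in this fit, and folds are the larger over the smaller group. The fit was tested on simulated data for 8087 genes. Of 100 genes changed by 1 on the log2 scale 62 passed, and of 100 changed by 2 95 passed. Among the unchanged genes 29 passed. Differences under 1, as most members had, were not simulated, so a member that did not pass may still differ. Summaries used Python 3.11.15 with pandas 2.3.3 and numpy 2.4.6, and plots matplotlib 3.10.9.

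The members, the lists and the rule for names were chosen with earlier results of these data known. Named members are those that passed, the 10 of each kind with the smallest p, the 3 of each kind with the largest difference each way, Usp16 and Usp27x, the 4 with the widest range between clones, and up to 3 passing genes of each list of other ubiquitin genes. Others are named as examples of their role group, after their values were seen. Alternatives were the methods' t-test with equal or unequal variances, array weights, robust empirical Bayes, a threshold of 0.05, 3 normalizations between arrays, values on all 9 arrays, the median of clones, leaving out each array, and a replicate block. Promoters came from RefSeq on GRCm38.p6.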

Additional observations from a re-analysis of the deposited data

Results flagged for a closer look

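Of 26 groups of invasive values tested for a single array far from the rest, 4 were marked, where chance marks about 1 in 20. A group was marked where the gap of the highest or lowest array to its nearest neighbor was over 0.625 of the range. Otud1 stood at −0.65 on invasive replicate 6, with its nearest neighbor at −0.02. Usp2 stood at −0.98 on invasive replicate 4, next to −0.54. Rnf6 stood at −0.24 on invasive replicate 1, the nearest array being at −0.61, and Usp9x stood at −0.64 on invasive replicate 3, with the nearest at 0.12. Groups of 3 PIN arrays were not tested.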

How the results depend on the processing

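Rnf144a passed under all 20 alternatives, and the other 3 passing members lost their calls with the methods' t-test, at a threshold of 0.05 and without several arrays. The deubiquitinases passing, 2 in the fit reported, numbered 0 with the methods' t-test of equal variances, 3 with unequal variances, 9 with array weights and 0 at a threshold of 0.05, and 0 to 4 when 1 array was left out (4 without invasive replicate 1, 1 without invasive replicate 2, and 0 without invasive replicate 4, 5 or 6 or PIN replicate 2 or 3). The ligases passing, also 2, numbered 1 with the t-test of equal variances, 10 with array weights, 1 at 0.05 and 1 with quantile normalization, and 1 to 7 when 1 array was left out (7 without invasive replicate 3, and 1 without invasive replicate 4 or 5 or PIN replicate 2 or 4). Of all genes 457 passed, against 54 with the t-test of equal variances, 207 with unequal variances, 1685 with array weights, 76 at 0.05, and 37 (without PIN replicate 2) to 896 (without invasive replicate 3) when 1 array was left out. The median of the deubiquitinases, −0.01, was −0.054 after quantile normalization and −0.015 (without invasive replicate 4) to 0.092 (without PIN replicate 4) with 1 array left out, and that of the ligases, 0.06, was −0.0094 (without PIN replicate 3) to 0.11 (without PIN replicate 4). Over 24 named members and 20 alternatives, 422 values kept direction and side of the threshold, 28 lost and 26 gained a call, and 4 changed direction, none of them a call: Rnf128 without PIN replicate 4 (0.24, against −1.15 without PIN replicate 2), Usp9x (−0.030) and Trim43a (0.018) with the median of clones, and Trim43a without PIN replicate 2 (0.0097, against −0.14 without PIN replicate 3). The cause of these changes was not tested.

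The replicate numbers 2, 3 and 4 occur in both groups but belong to different mice, and the deviations of arrays with the same number had r of −0.09, −0.10 and −0.02, so the numbers do not pair them. With the number as a replicate block over those 6 arrays, 0 deubiquitinases, 1 ligase and 90 genes in all passed.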
